A study of Sus scrofa domesticus with 4 samples.

Results

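The heat shock and endoplasmic reticulum chaperones examined here were 10 pig genes, DNAJB1, DNAJA4, HSP90AA1, HSP90AB1, HSP90B1, HSPA8, HSPA5, HSPB1, HSPD1 and PDIA4, taken as every array probe whose RefSeq accession belongs to one of them. That rule gave 40 of 43603 probes and 9 of the 10 genes. No probe carried a RefSeq accession of HSPA5, the main HSP70 of the endoplasmic reticulum, so it has no value here. HSPD1 had 12 probes, HSP90B1 8, HSP90AA1 and HSP90AB1 6 each, DNAJB1, DNAJA4 and HSPB1 2 each, and HSPA8 and PDIA4 1 each. All 40 were bright enough to be tested. The genes were chosen when their ratios of treated over non-treated RNA were already known, so these ratios are given as a description and no test of them is read.

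Both groups were explants of myometrium, the smooth muscle layer of the uterine horn, from 4 Large White x Polish Landrace gilts aged 7 to 8 months and weighing 120 to 130 kg, on days 15 to 16 of gestation. Slices of 100 mg and 3 mm thickness rested for 2 h and were then cultured for 24 h, either with adiponectin at 10 µg/ml or without it. The study asked what this hormone of adipose tissue does to gene expression in the myometrium of early pregnancy. Each of 4 Agilent 2-colour arrays carried 1 treated and 1 non-treated RNA, and the dyes were swapped: adiponectin RNA was in Cy5 on arrays 1 and 3, and Cy3 held it on arrays 2 and 4. The labels leave unsaid which gilt an array represents and whether its RNAs share a gilt, and cultures were set up in duplicate, so the spread between arrays may be partly technical. An explant holds every cell type of the slice, so fewer cells of a type and less RNA per cell cannot be told apart.

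Molecular chaperones bind unfolded stretches of other proteins and keep them from clumping while they fold. In the cytosol, J-domain proteins such as DNAJB1 and DNAJA4 hand clients to HSP70 proteins such as HSPA8, and HSP90 proteins finish the folding of kinases and steroid receptors, which include those of the uterus. Protein damage frees the transcription factor HSF1, which switches on the inducible heat shock genes. The endoplasmic reticulum has chaperones of its own, HSPA5, HSP90B1 and the disulfide isomerases, which are raised by the unfolded protein response, and mitochondria fold imported proteins in the HSPD1 and HSPE1 chamber. In smooth muscle, HSPB1 is an abundant small heat shock protein that binds the actin cytoskeleton.

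The tissue label was checked on smooth muscle markers. All 7 tested markers, among them ACTA2 and DES, were well above background in both RNAs on all 4 arrays. Epithelial KRT8 and EPCAM and macrophage CD163 were also well above background on all 4, so other cell types contributed RNA. Over the whole array, between 46.1% and 51% of Cy3 spots and between 54.9% and 63.1% of Cy5 spots were well above background. Slide 1, scanned in scan 1, held arrays 1 to 3, while array 4 came from slide 2 and scan 2. The number of arrays limits the precision, and the median SE of a tested probe was 0.10 on the log2 scale.

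In the fit across all 22133 tested probes, limma called 0 probes at an adjusted p of 0.05 (0% of those tested, 759 higher and 375 lower at an unadjusted p under 0.05), and 0 of the 40 chaperone probes were among the calls. Log2 changes below are the treated over non-treated coefficient of that fit with its moderated SE (n = 4 arrays), after background correction and loess, and the array values are the log2 ratios turned so that a positive value means more signal with adiponectin. The dye offset of a probe is left in these array values and acts in opposite directions on the 2 dye orientations. With 2 arrays per orientation, this fitted offset cannot be told apart from a difference between arrays 1 and 3 and arrays 2 and 4. For each gene, the probe with the highest mean signal is given first.

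On that probe, 7 of the 9 genes had a log2 change below 0, beside 54.1% of the 2134 named genes tested, and with the scanner's own ratio in place of loess 6 of the 9 did. Their median was -0.12, against -0.01 for all named genes. DNAJB1, PDIA4 and DNAJA4 lay lowest, HSPA8 and HSP90B1 highest, and the other 4 within 0.14 of 0. The count and the median depend on the probe that stands for a gene: with all probes of a gene averaged, 4 of 9 lay below 0 and the median was 0.00. DNAJB1, DNAJA4 and PDIA4 were below 0 on all 4 arrays, beside 6.14% of named genes, and none of the 9 was above 0 on all 4, beside 5.34%. These counts keep the dye offset. Once it was removed, DNAJB1 was at 0.01 on array 1. DNAJA4 and PDIA4 stayed below 0 on all 4 arrays, and HSP90AB1 joined them at -0.03, -0.18, -0.26 and -0.11. Over all 40 probes, 24 lay below 0 after rounding to 2 decimals, beside 49.4% of all tested probes, counted unrounded. The brightest HSP90AA1 probe and HSP90B1 probe A_72_P672550 lay so little below 0 that they round to 0.00 and are outside the 24.

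**Figure D1:**
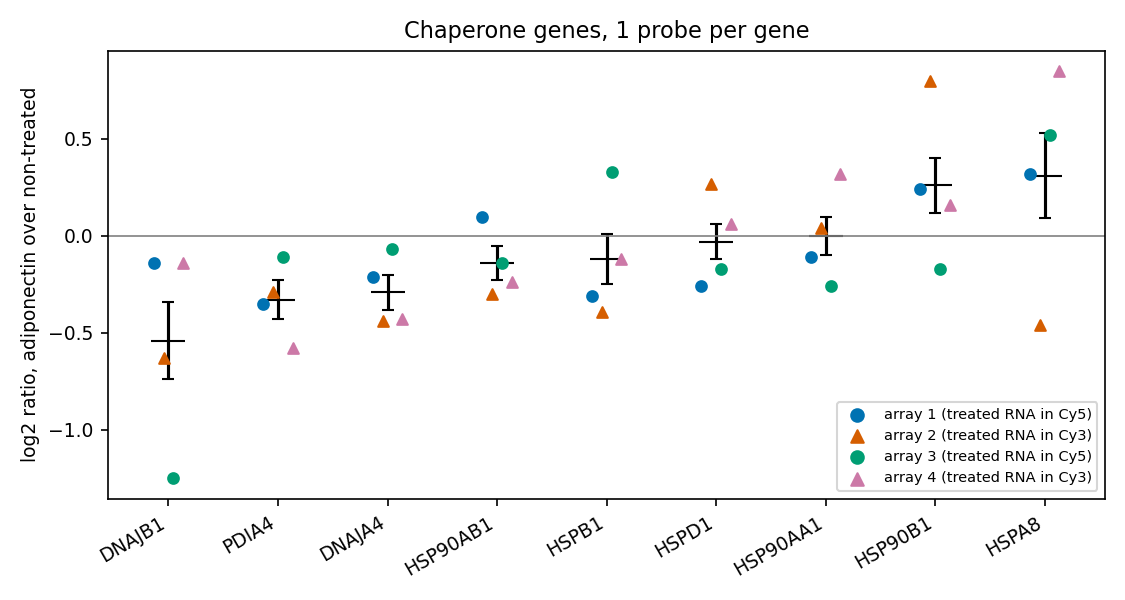
Log2 ratio of adiponectin-treated over non-treated RNA for the brightest probe of each of 9 chaperone genes; points are the 4 arrays, bars the fitted log2 change with its SE. The 4 points of DNAJB1, PDIA4 and DNAJA4 all lie below 0, while those of HSPA8 run from -0.46 to 0.85.

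Both J-domain co-chaperones were below 0 on all 4 arrays on their brightest probes with the dye offset left in, and neither was on its second probe. DNAJB1, the HSP40 that drives the HSPA8 cycle and is itself induced by heat shock, stood at -0.14, -0.63, -1.25 and -0.14 on arrays 1 to 4. The log2 change was -0.54 ± 0.20 (SE, n = 4), or 0.687 times the non-treated signal. Array 3 was far lower than arrays 1 and 4. Leaving it out gave -0.26, and leaving out array 1 gave -0.82. The second DNAJB1 probe stood at 0.36, -0.56, -0.35 and 0.17, with a log2 change of -0.09 ± 0.17. Its arrays 1 and 4 were above 0. With the dye offset left in, the 2 probes thus shared their sign only on arrays 2 and 3. With the offset removed, the second probe stood at 0.26, -0.46, -0.45 and 0.27, sharing the first probe's sign on arrays 1 to 3. By the scanner's ratio it stood at 0.47, -0.54, -0.37 and -0.14, with the first probe's sign on every array. DNAJA4, a J-domain protein of the other structural class, was more even, at -0.21, -0.44, -0.07 and -0.43, a log2 change of -0.29 ± 0.09. It stayed below 0 on all 4 arrays by the scanner's ratio, as HSP90AB1 did there, while DNAJB1 was then at 0.04 on array 1 and PDIA4 at 0.01 on array 3. The second DNAJA4 probe stood at -0.01, -0.69, 0.23 and -0.12, with a log2 change of -0.15 ± 0.12.

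HSPA8, the constitutive cytosolic HSP70, stood at 0.32, -0.46, 0.52 and 0.85 on its only probe. It was higher with adiponectin on arrays 1, 3 and 4 and lower on array 2, with a log2 change of 0.31 ± 0.22. The SE covers most of that value, which was 0.64 without array 2 and -0.02 without array 4. HSPB1 was lower with adiponectin on arrays 1, 2 and 4 and higher on array 3, at -0.31, -0.39, 0.33 and -0.12. With the dye offset removed, HSPB1 was at 0.01 on array 4. Its log2 change was -0.12 ± 0.13, running from 0.04 without array 1 to -0.28 without array 3. The second HSPB1 probe had the same sign as the first on every array, at -0.66, -0.14, 0.23 and -0.16.

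The cytosolic HSP90 genes lay near 0 on their brightest probes, and their probes did not move as one. HSP90AA1, the stress-inducible form, stood at -0.11, 0.04, -0.26 and 0.32, with a log2 change of 0.00 ± 0.10. Its other 5 probes ran from -0.19 to 0.27. With the dye offset left in, a pair of them, A_72_P700356 and A_72_P634756, differed widely between arrays. The first stood at 0.45, 0.43, -1.09 and 1.28, the second at 0.14, 0.31, -0.72 and 0.66. Averaged with the offset left in, this pair was at -0.90 on array 3 and 0.97 on array 4. The other 4 probes averaged -0.19 and 0.02 there. The dye offsets of the pair were -0.59 and -0.39. Once these were removed, the first stood at 1.03, -0.16, -0.50 and 0.69, the second at 0.53, -0.08, -0.33 and 0.28. Part of the pair's gap between arrays 3 and 4 was thus taken up by the fitted offset. The pair was picked for its spread after its values were seen, and so were the probes of HSP90AB1 and HSPD1 set apart below.

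HSP90AB1, the constitutive cytosolic HSP90, stood at 0.10, -0.30, -0.14 and -0.24 on its brightest probe, a log2 change of -0.14 ± 0.09. Of its 6 probes, 4 lay between -0.16 and -0.14 and the remaining pair at 0.35 and 0.50. A_72_P763852, the higher of that pair, stood at 0.62, 0.18, 0.17 and 1.05, above 0 on all 4 arrays, and A_72_P424164 at 0.50, 0.35, -0.08 and 0.64. The pair exceeded the mean of the other 4 probes by 0.82, 0.54, 0.14 and 0.81 on arrays 1 to 4. The mean gap, for which the pair was picked, was 0.58, and it ran from 0.41 to 0.75 when single arrays were left out. The sign given to HSP90AB1 thus depends on the probe. For HSP90AA1 the gap of the pair was 0.25 and ran from -0.05 to 0.54. HSP90AA1 and HSP90AB1 are close paralogs, and which transcript each probe binds was not checked here.

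**Figure D2:**
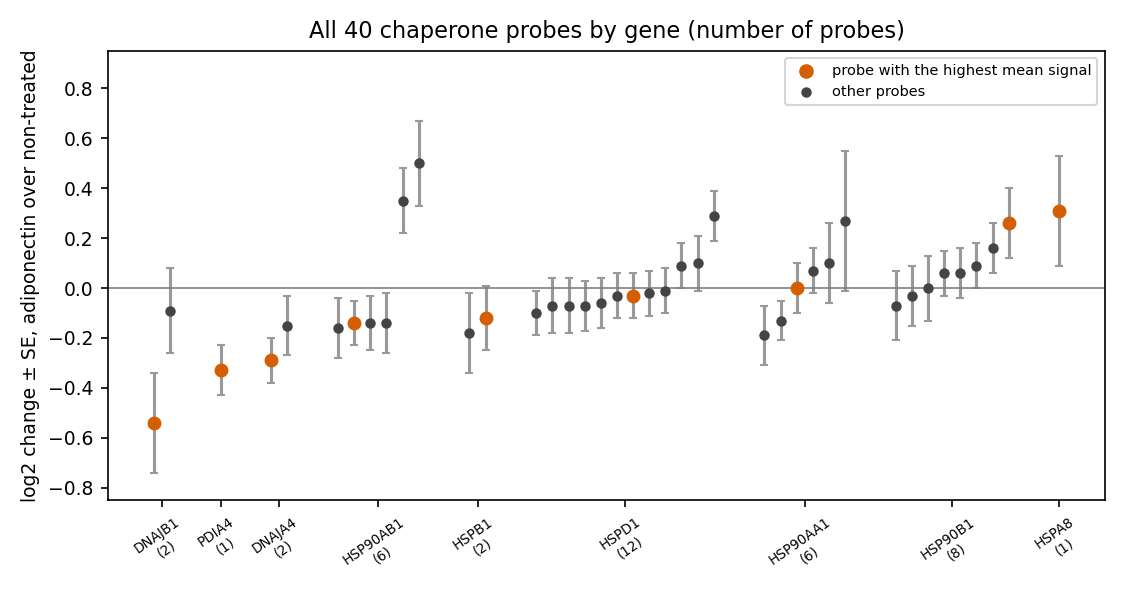
Log2 change with its SE for all 40 probes, grouped by gene with the number of probes in brackets; orange marks the brightest probe of a gene. Of the 6 HSP90AB1 probes, 4 lie between -0.16 and -0.14 and 2 at 0.35 and 0.50.

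In the endoplasmic reticulum, HSP90B1 and PDIA4 pointed in opposite directions. PDIA4, a disulfide isomerase that forms and reshuffles disulfide bonds, stood at -0.35, -0.29, -0.11 and -0.58 on its only probe. Every array was below 0, with a log2 change of -0.33 ± 0.10, or 0.794 times the non-treated signal, and it stayed between -0.40 and -0.26 when single arrays were left out. HSP90B1, the HSP90 of the endoplasmic reticulum, stood at 0.24, 0.80, -0.17 and 0.16, with a log2 change of 0.26 ± 0.14. This was the highest of its 8 probes, whose log2 changes ran down to -0.07 with a median of 0.06. The value of the brightest probe ran from 0.10 without array 2 to 0.42 without array 4, and it was 0.01 with median centring in place of loess, where 7 of the 8 probes lay below 0. HSPA8 was likewise at 0.01 under that centring, which moved the median of all named genes from -0.01 to -0.13.

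The many probes of HSP90B1 and HSPD1 gave repeated readings of the same arrays. All 8 HSP90B1 probes were above 0 on array 2, between 0.23 and 0.80 with a median of 0.33. On array 3, 7 of the 8 were below 0, and their SD between probes was 0.07. On array 4 the probes split, with 3 below 0 and a range from -0.45 to 0.45. HSPD1, the mitochondrial HSP60, had 11 of its 12 probes below 0 on array 1 (median -0.28), and 11 of 12 above 0 on array 2 (median 0.23). On array 3 the median was -0.10 and on array 4 it was 0.05. Over the 4 arrays the log2 change of the brightest HSPD1 probe was thus -0.03 ± 0.09, and 11 of the 12 probes lay between -0.10 and 0.10. These array values hold the dye offset, which was -0.19 for the brightest HSPD1 probe. Once it was removed, that probe stood at -0.07, 0.08, 0.02 and -0.13, so the fitted offset took up most of its gap between arrays 1 and 2. The brightest HSP90B1 probe then stood at 0.46, 0.58, 0.05 and -0.07. On array 3 the 8 HSP90B1 probes then ran from -0.12 to 0.21, with most of them above 0. Probes of a gene share their RNA and are not replicates. Their likeness shows that the array values, dye offset included, were read alike, not that the treatment acted alike on the arrays.

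The remaining HSPD1 probe, A_72_P110291, stood at 0.08, 0.24, 0.30 and 0.52, a log2 change of 0.29 ± 0.10. It lay above the median of the other 11 on all 4 arrays. The gap to their mean was 0.31 and ran from 0.21 to 0.41 when single arrays were left out.

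**Figure D3:**
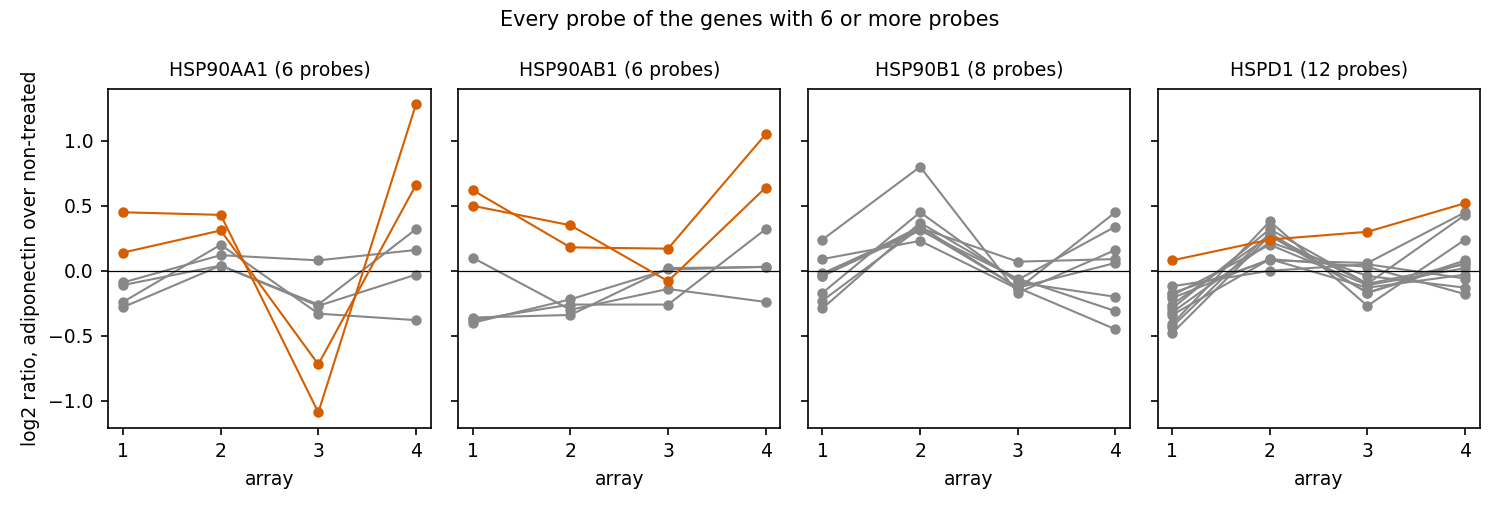
Log2 ratio of every probe of the 4 genes with at least 6 probes, by array; a line joins the values of 1 probe and the arrays have no order. Orange marks the probes set apart in the text. On array 2 all HSP90B1 probes lie above 0, and on array 1 all but 1 of the HSPD1 probes lie below 0.

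Levels in each RNA show how far the signals behind a ratio differed between arrays. Each level was computed from the mean log intensity and the ratio of a probe, so level and ratio are not independent. They are log2 signals normalised between arrays, with each probe's dye offset removed where so stated, and they can be set side by side only within a probe. All 9 brightest probes and 33 of the 40 probes were in the upper 10% of all probes by mean signal. In non-treated RNA, DNAJB1 stood at 13.91, 15.11, 14.82 and 13.40 on arrays 1 to 4 (mean 14.31 ± 0.79 SD, n = 4), and in treated RNA at 13.76, 14.48, 13.57 and 13.26 (13.77 ± 0.52). The second probe gave the same order of arrays in non-treated RNA, with array 2 highest and array 4 lowest, at 11.41, 12.56, 11.69 and 10.64. With the dye offset removed, non-treated DNAJB1 signal spanned 3.26-fold on the first probe and 3.78-fold on the second, and 2.56-fold and 2.07-fold within slide 1. Its SD of 0.79 on both probes exceeded that of 97% of tested probes, whose median was 0.25. The array with the lowest DNAJB1 ratio on the first probe, array 3, was thus one of the 2 arrays with high non-treated signal. This is partly built in, since a lower ratio raises the non-treated level computed from it.

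HSPA8 varied in non-treated RNA and little in treated RNA. Its non-treated levels were 16.37, 16.86, 16.13 and 15.72 and its treated levels 16.69, 16.40, 16.65 and 16.57. With the dye offset removed, the SD over arrays was 0.48 without adiponectin and 0.08 with it. Within slide 1 the ranges were 0.62 and 0.18. A larger spread in non-treated than in treated RNA was common: it was found for 7 of the 9 genes and 30 of the 40 probes, and for 64.9% of all tested probes.

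On their brightest probes the other 7 genes had SDs of at most 0.34 in non-treated RNA. Some of their further probes varied more: with the dye offset removed, HSP90AA1 probe A_72_P700356 had a non-treated SD of 0.54 and HSP90AB1 probe A_72_P623359 one of 0.59, above the 0.48 of HSPA8. Non-treated HSP90AA1 stood at 15.54, 15.42, 15.55 and 15.11 (15.41 ± 0.20), and treated at 15.41 ± 0.08. HSP90AB1 stood at 16.35 ± 0.23 without and 16.20 ± 0.11 with adiponectin. HSPB1 stood at 15.62 ± 0.30 and 15.50 ± 0.34, and HSP90B1 at 14.73 ± 0.28 and 14.99 ± 0.30. DNAJA4 was at 13.27 ± 0.30 and 12.98 ± 0.18, HSPD1 at 13.53 ± 0.34 and 13.50 ± 0.21, and PDIA4 at 12.23 ± 0.34 and 11.90 ± 0.39. In each of these 7 genes the difference of the means was smaller than the larger SD. Treated and non-treated ranges overlapped for all 9 genes. Both comparisons leave out the pairing of the RNAs by array, so they do not measure the precision of the log2 changes.

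**Figure D4:**
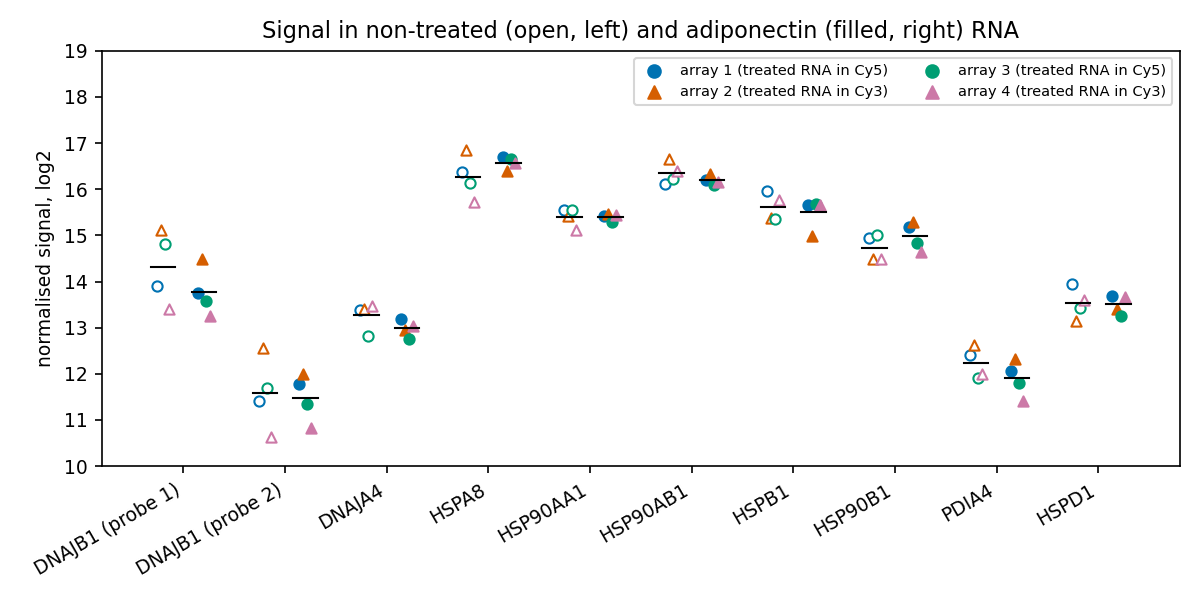
Normalised log2 signal of the brightest probe of each gene and of the second DNAJB1 probe, in non-treated (open) and treated (filled) RNA on each array; black lines are means. Non-treated DNAJB1 runs from 13.40 to 15.11, and treated HSPA8 stays between 16.40 and 16.69.

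Further genes of protein folding were taken from 6 lists of 159 genes, of which 37 had a named probe and 35 were tested. None of the 35 passed the test over all probes, 17 lay above 0 and 18 below, and their median was 0.00. The nearest relatives of the chaperones above were the other heat shock proteins. All 4 tested lay below 0 on their brightest probes, with a median of -0.08, beside 54.1% of named genes. HSPA1L, given to complete the 4, was at -0.02 ± 0.11. HSPA6, a strictly inducible HSP70, had a log2 change of -0.47 ± 0.26 and the widest swing, at 1.21, -1.81, -0.26 and -1.01. Its non-treated signal spanned 5.01-fold over the 4 arrays with the dye offset removed, and 1.65-fold within slide 1. SERPINH1, the collagen chaperone of the endoplasmic reticulum, was at -0.14 on its brightest probe and at 0.06 on its other probe. HSPH1, an HSP110 exchange factor chosen after its values were seen, was at -0.02 ± 0.18, with array values of 0.55, -0.44, -0.33 and 0.15.

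Of 6 tested heat shock factors and co-chaperones, 4 lay above 0 (median 0.09). CHORDC1, an HSP90 co-chaperone, was at 0.37 ± 0.31. Its non-treated signal was well above background on 3 of the 4 arrays, where the ratios were -0.04, -0.42 and 0.43. On array 1 it was not, and the ratio of 1.50 there rests on that dim signal. BAG6 was at 0.19 on its brightest probe, and its 3 probes ran from -0.08 to 0.19. The HSP90 partners CDC37 and FKBP4 were both at -0.08. CDC37 and FKBP4 had like array values, at -0.30, -0.55, 0.37 and 0.16 and at -0.29, -0.36, 0.27 and 0.06.

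Of 9 other tested chaperones and isomerases of the endoplasmic reticulum, 5 lay above 0 (median 0.01). The lectin chaperone CALR was at 0.16. DNAJC3, a J-domain protein, was at 0.14 on its brightest probe and at -0.15 on its other probe. ERO1A, which oxidises the disulfide isomerases, was at -0.24 ± 0.41 and swung from 0.80 on array 1 to -1.87 on array 3. DNAJB11, the J-domain partner of HSPA5, was at -0.08. Of 9 tested genes of the unfolded protein response and degradation, 6 lay above 0 (median 0.05). DDIT3, the stress factor CHOP, was at 0.19 and DERL1, of the degradation channel, at 0.14. ATF6B, a sensor, was at -0.15 and TMBIM6 at -0.09. XBP1, a factor of the response chosen after its values were seen, was above 0 on all 4 arrays on its brightest probe (0.23, 0.10, 0.13 and 0.08), and its 6 probes ran from -0.09 to 0.22.

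Among the folding machines, mitochondria had 3 tested genes besides HSPD1 (median 0.00). HSPE1, the lid of the HSPD1 chamber and likewise chosen after its values were seen, stood at -0.34, 0.20, -0.04 and 0.17, beside -0.26, 0.27, -0.17 and 0.06 for HSPD1, with the same sign on every array. The dye offset is left in the values of both genes. DNAJC19 was at 0.08 on its brightest probe, and its 6 probes ran from -0.02 to 0.08. TRAP1, the mitochondrial HSP90, was at -0.10. Of the cytosolic chaperonin and prefoldin, TCP1 was at 0.14, CCT3 at -0.05 and PFDN6 at -0.19, and the median of 4 genes was -0.03.

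The 3 named genes most like DNAJB1 over the 4 arrays, by root mean square difference of the log2 ratios, were DESI1 (0.29), PLPPR5 (0.33) and FAS (0.33), where the median of 2125 named genes was 0.76. DESI1 stood at -0.14, -0.42, -0.73 and -0.02. For HSPA8 they were NME1 (0.18), AMCF-II (0.19) and ATP5G3 (0.22), with a median of 0.61. NME1 stood at 0.03, -0.48, 0.32 and 0.76, below 0 on array 2 as HSPA8 was.

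Markers of the cell types in the slice moved between arrays. Of 63 pairs of a chaperone gene, on its brightest probe, and a marker list, 5 had the same sign on all 4 arrays, or 7.94%. The share was 7.55% among pairs of a marker list and any other named gene, so the chaperones' share is near the background. With the median of a gene's probes in place of the brightest, 5 pairs matched again, 3 of which were the same. These 3 were HSPB1 with smooth muscle, and HSPA8 with macrophages and monocytes and with lymphocytes. HSPA8 has only 1 probe, so its pairs could not change, and of the 3 only the HSPB1 pair could have differed. All these signs were taken with the dye offset left in, and no pair was scored without it. With the offset removed, the brightest HSPB1 probe was at 0.01 on array 4 and its second probe at -0.19.

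The smooth muscle list had medians of -0.41, -0.24, 0.62 and -0.28 over 7 tested of 13 genes (3 genes above 0 and 4 below over the arrays), beside -0.31, -0.39, 0.33 and -0.12 for HSPB1. The log2 of the summed signal of these 7 markers ran from 18.73 to 19.68 in non-treated and from 18.91 to 19.69 in treated RNA. Such a sum is set mostly by the brightest probes, and the summed signals below are of the same kind. The macrophage and monocyte list had medians of 0.25, -0.16, 1.65 and 0.63 over 11 tested of 17 genes, 10 of them above 0. Its summed signal ran from 12.42 to 13.55 without and from 12.79 to 14.26 with adiponectin, and SIGLEC1 was not well above background on any array. HSPA8 was highest on array 4 and the macrophage median on array 3. The lymphocyte list, with 3 tested of 16 genes, all above 0, had medians of 0.12, -0.01, 0.76 and 0.02. Its summed signal ran from 9.63 to 10.12 without and from 9.76 to 10.22 with adiponectin, and CD3D, CD8A and MS4A1 were not well above background on any array. Only 1 of the 3 tested genes was well above background in both RNAs on all 4 arrays. IL7R was not so in non-treated RNA on any array.

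The other matches depended on the probe. HSP90B1 on its brightest probe had the signs of the endometrial epithelium list, whose medians were 0.02, 1.02, -0.47 and 0.20 over 7 tested of 12 genes, 5 above 0. Over the 8 HSP90B1 probes the medians were -0.04, 0.33, -0.11 and 0.08, and 6 of the 8 were below 0 on array 1. The summed signal of the epithelial list ran from 12.66 to 13.87 in non-treated and from 12.85 to 14.25 in treated RNA, and 5 of the 7 were well above background in both RNAs on all 4 arrays. HSP90AB1 on its brightest probe had the signs of connective tissue stroma, at 0.29, -0.26, -0.26 and -0.04 over 6 tested of 11 genes, 5 below 0, with a summed signal from 16.04 to 16.57 without and from 16.19 to 16.41 with adiponectin. The medians over the 6 HSP90AB1 probes were -0.13, -0.24, -0.03 and 0.18, with the opposite sign on arrays 1 and 4. The part of these cell types in the chaperone ratios was not tested.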

How the data were processed

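The deposited scanner files hold median spot and background intensity for Cy3 and Cy5, made with Agilent Feature Extraction 10.7.3.1, per the file headers. The scanner's log10 ratio, Cy5 against Cy3, follows background subtraction and dye normalisation, per the file headers. The deposited value table holds log2 ratios; for bright probes it equalled the scanner ratio of treated over non-treated RNA (slope 1 on each array, 100% of values within 0.01), with column medians of -0.10, 0.13, -0.14 and 0.16, and how dim probes were made stays unknown. The dye fields set each ratio's direction; the labelling protocol text describes treated RNA in Cy5 only.

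Intensity was corrected with normexp (offset 50) and loess in limma 3.58.1 under R 4.3.3, with control and outlier spots at weight 0. Tested probes had a signal well above background on 3 or more of the 4 arrays in either RNA and no missing ratio. Levels were computed from the ratio and the mean log intensity, after quantile normalisation of the latter between arrays. Ratios were fitted with lmFit and eBayes on a treatment and a dye coefficient (two-sided, Benjamini-Hochberg), and the fit was tested on simulated data. Of 7125 probes with a RefSeq accession, 6700 were named with RefSeq's Sscrofa11.1 gene table, from which no coordinates were taken; the array files name no genome build. Named genes were all chaperones in the rule, the 2 highest and 2 lowest per list, and the 3 most alike. The members and lists were chosen with earlier results of these data known. Alternatives covered normalisation, background, filter, dye term, probes of a gene, the value table and each array left out. Promoter and protein features were not analysed here.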

Additional observations from a re-analysis of the deposited data

Results flagged for a closer look

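In 18 sets of 4 array values (the ratio and the non-treated level of 9 genes), 1 array lay far from the other 3 in 1 set, where chance gives about 1 in 20 sets. Non-treated DNAJA4 had a level of 12.82 on array 3, against 13.39 to 13.47 elsewhere. The second DNAJA4 probe stood at 9.58, 10.41, 9.24 and 9.38, lowest on array 3 as well but close to array 4.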

How the results depend on the processing

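The count of called probes was 0 in each of the 12 alternatives that refit all probes. The median log2 change of the chaperones was -0.39 with median centring in place of loess, which moved the median of all named genes from -0.01 to -0.13 and the probes at an unadjusted p under 0.05 to 222 higher and 2251 lower. With all probes of a gene averaged the median was 0.00 and 4 genes lay below 0. With single arrays left out the median ran from -0.16 to -0.04 and the count below 0 from 6 to 7. With median centring DNAJB1 was at -0.80, PDIA4 at -0.53, DNAJA4 at -0.52, HSP90AB1 at -0.45, HSPB1 at -0.39, HSP90AA1 at -0.27, HSPD1 at -0.25, and HSPA8 and HSP90B1 both at 0.01. With all probes averaged DNAJB1 was at -0.32, HSP90B1 at 0.07 and HSP90AB1 at 0.04, and with the scanner ratio HSPA8 was at 0.18. With single arrays left out DNAJB1 ran from -0.82 to -0.26, HSP90B1 from 0.10 to 0.42, HSPA8 from -0.02 to 0.64 and HSPB1 from -0.28 to 0.04. The sign differed from that above in 4 of the 13 alternatives for HSP90AA1 and HSPD1 each, in 1 each for HSP90AB1, HSPA8 and HSPB1, and in 0 for DNAJB1, DNAJA4, PDIA4 and HSP90B1. For the probes set apart for their gap, the 5 alternatives that change the ratios gave gaps of 0.57 to 0.62 for HSP90AB1, 0.31 to 0.35 for HSPD1 and 0.21 to 0.27 for HSP90AA1; the filters, the dye term and the averaging of probes leave a gap as it is. The causes were not tested. The fit on within-array ratios is already paired by array. Leaving out array 4 leaves slide 1 alone.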
